A study of Mus musculus with 14 samples.

Results

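The early response of the mouse thymus to estradiol was described across all genes from 4 of the 14 arrays in the series. They were chosen by their labels alone: the 2 arrays labelled as day 2 of estrogen treatment and the 2 labelled as control at day 0. Estradiol is the main ovarian estrogen. The estradiol mice had received daily injections under the skin of 125 ng of the hormone in 0.02 ml of corn oil, and the control mice were untreated at day 0. For comparison, arrays from days 3 and 6 of the same injections and from day 2 of feeding genistein, a plant estrogen from soy, at 1500 ppm were used, again 2 of each. All mice were female C57BL/6, an inbred strain, and in every group, controls included, the ovaries had been removed at day 26 of age and the diet was free of phytoestrogens until treatment began at day 30. Each array held thymus RNA pooled from 3 of the 6 mice of its group, and the labels call both pools independent biological replicates, so that a p-value here speaks of pools. No untreated or oil-injected arrays of day 2 were analysed here. The hormone, the oil injections and the time since day 0 therefore cannot be told apart.

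The thymus makes T cells. Immature thymocytes fill its cortex, rearrange their receptor genes with the Rag recombinases and divide, and those that pass selection move on to the medulla, guided by epithelial cells of each region. Estrogen is known to shrink the organ, stress steroids (glucocorticoids) kill cortical thymocytes, and dying cells are cleared by macrophages. Dividing cells make cholesterol through the mevalonate pathway, whose genes are switched on together when sterols run low.

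Values are hybridisation signals in intensity units, brought to 1 common scale on all arrays (a trimmed mean of 150.04; estradiol day 2 replicate 2 had been deposited at 1.49 times that scale). Differences are on the log2 scale after adding 16 to each signal, which understates the change of dim genes. A probe set, the group of probes that reports 1 transcript, was called when limma's Benjamini-Hochberg adjusted p was under 0.05, and each gene is given by the probe set whose mean is highest unless another is named. Of the probe sets, 13576, for 8214 genes, were bright enough to test. Control replicate 2 had the lowest mean correlation with the remaining arrays (0.942, taken over probe sets). Both estradiol day 2 arrays correlated more closely with control replicate 1 (0.9635 and 0.9673) than with each other (0.9562), and least with control replicate 2 (0.9424 and 0.9272). For Gapdh, 3' signal divided by 5' signal, a measure of RNA breakdown, was 1.27 on estradiol day 2 replicate 1, 0.928 on replicate 2, and 0.944 and 0.894 on the controls. With that ratio as a covariate, chosen after seeing the data, 15 probe sets were called in place of 12. The arrays carried the marks of the labelled organ. Rag1, which with Rag2 forms the recombinase, had signals of 2962 and 2087 at estradiol day 2 and 2446 and 2313 in controls, and Foxn1, the master regulator of thymic epithelium, had 107.7 and 98.2 against 95.8 and 85.9.

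By day 2 of estradiol, the glucose transporter Slc2a4, the lipase Lpl, the reductase Cbr2 and the secreted protein Retnla were higher on their highest probe sets. On lower or shared probe sets, Klf9, Me1, Ighm, Trgv4 and immunoglobulin κ segments were higher. The cholesterol synthesis enzymes Sqle and Fdps were lower. In all, 12 of the 13576 probe sets were called (0.0884%). Of these 10, from 8 genes and 2 probe sets shared by several genes, were higher (0.0737%), and 2, from 2 genes, were lower (0.0147%). Of the 10, 8 were more than 2-fold higher. At an unadjusted p of 0.05, 986 probe sets were higher and 682 lower. The median over all probe sets was 0.02. Among the 8214 genes, both estradiol arrays lay above both control arrays for 22.7% and below both for 16.9%. Differences were positive for 55.4% of the genes and negative for 44.4%. These shares are the background for the counts given for gene lists. In each list up to 4 members, those with the smallest p, are named by rule. Other members, such as defining markers and exceptions, were chosen after their values were seen.

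**Figure D1:**
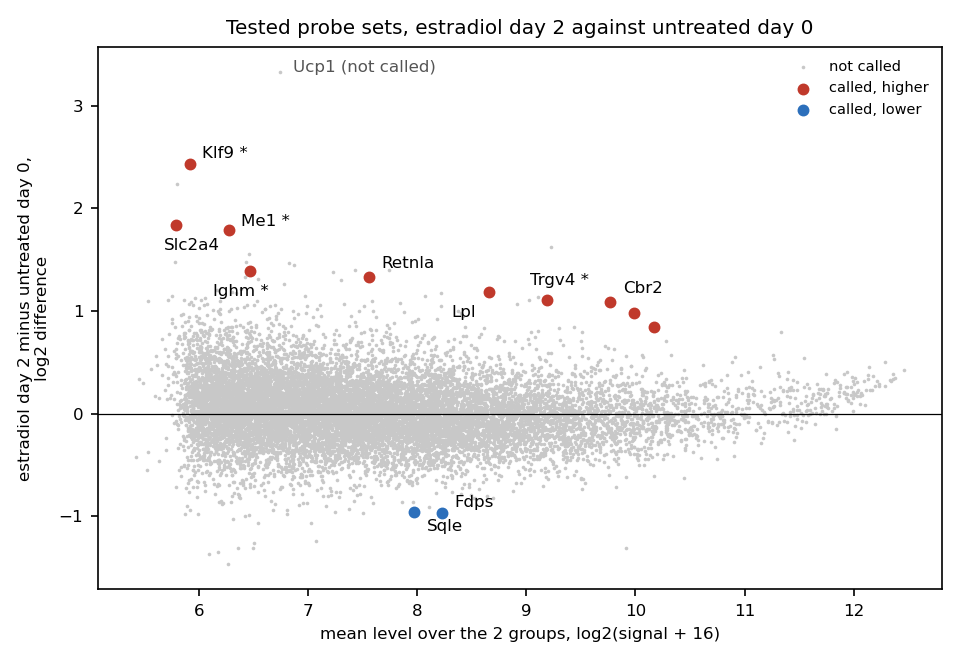
Each point is a tested probe set, placed by its mean level over both groups (x axis, log2 of signal + 16) and by its log2 difference, estradiol day 2 minus untreated day 0 (y axis). Called probe sets are red (10 higher) or blue (2 lower), an asterisk marks one that is not its gene's highest, and Ucp1, at 3.33, stands above all others without a call.

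Slc2a4, the insulin-responsive glucose transporter GLUT4, had the smallest p, on the probe set of its 2 that was bright enough to test. Its signals were 82.9 and 94.5 at estradiol day 2, against 11 and 15.9 in controls. Both control values lay below the constant of 16 that was added, so the size of the rise is approximate: 1.83 ± 0.193 (SE, limma, adjusted p = 0.00276). Over the 24 of 26 alternative settings in which it was bright enough to test, it ran from 0.98 to 2.65. Its control mean, 4.88 on the log2 scale, was under the lowest mean tested (5.92), so the treated arrays carried it past that filter. Fitting only the groups compared gave 0 calls for any probe set. Slc2a4 kept its call in each of 14 fits that left out 1 array and lost it, with 1 estradiol day 2 array remaining, when the 3 arrays deposited on higher scales were left out. The 9 tested genes of its list, glucose transporters and hexokinases, had a median of 0.21, with no other call. Slc2a1, the transporter that most cells use, stood at 0.21 ± 0.155, and hexokinase Hk2 at 0.31 ± 0.192.

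Lpl, lipoprotein lipase, frees fatty acids from circulating lipoproteins. Its signals were 705.6 and 496.6 at estradiol day 2 and 252.1 and 252.5 in controls, a difference of 1.18 ± 0.183 (limma, adjusted p = 0.0257). The lower estradiol array was at nearly 2 times both controls. Another tested Lpl probe set stood at 0.96 ± 0.22 and was not called (adjusted p = 0.127). Retnla, a secreted resistin-like protein of alternatively activated macrophages and fat, had 328.1 and 245 against 100.8 and 105, and rose by 1.33 ± 0.205 (adjusted p = 0.0257). Cbr2, a carbonyl reductase known from the lung, had 1302 and 1215 against 614.6 and 552.7, and rose by 1.09 ± 0.138 (adjusted p = 0.008). In none of the 3 did the groups overlap. Without control replicate 2 none of the 3 passed, and without estradiol day 2 replicate 1 none passed either. Lpl was also lost without either estradiol day 6 array. Over all alternative settings their differences ranged from 0.93 to 1.46 for Lpl, 1.06 to 1.61 for Retnla and 1.01 to 1.37 for Cbr2.

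The other called rises came from probe sets that are not the highest of their gene, or that several genes share, and they are named here after their values were seen. Klf9, a zinc finger factor induced by glucocorticoids and thyroid hormone, had 105.1 and 146.8 at estradiol day 2 on its lower probe set, against 9.8 and 10.2 in controls. This rise of 2.43 ± 0.279 (limma, adjusted p = 0.00393) is likewise approximate (1.35 to 3.51 over the 24 settings in which it was tested). Its control mean, 4.70 on the log2 scale, was also under the lowest mean tested. The higher Klf9 probe set had 252.2 and 254.8 against 133.7 and 153.3, at 0.76 ± 0.145, which did not pass (adjusted p = 0.0879). Me1, the malic enzyme that supplies NADPH for lipid synthesis, had 141.8 and 115.7 against 19.6 and 32.7 on its lower probe set (1.79 ± 0.263, adjusted p = 0.0221). There its control mean, 5.38 on the log2 scale, was again under the lowest mean tested. Its higher probe set stood at 0.47 ± 0.182 (adjusted p = 0.343). For both genes, then, probe sets of 1 gene differed in the size of the change.

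Ighm, the heavy chain of IgM, had 131.6 and 123.8 at estradiol day 2 on its called probe set, against 36.0 and 41.8 in controls (1.39 ± 0.207, adjusted p = 0.0221). There its control mean, 5.78 on the log2 scale, was under the lowest mean tested (5.92) too. Its highest probe set had 2476 and 2303 against 1738 and 1853, at 0.41 ± 0.154 (adjusted p = 0.328). Of its 3 other tested probe sets, 1 overlapped between the groups, with 1408 and 1707 against 1410 and 1354 (0.16 ± 0.146), and the others stood at 0.89 ± 0.196 and 0.24 ± 0.191 without a call. Trgv4, a γ chain V segment of γδ T cell receptors, had 731 and 968.5 against 372.5 and 391.4 (1.11 ± 0.176, adjusted p = 0.0298), while its highest probe set, at 765.8 and 888.1 against 472.9 and 439.9, did not pass (adjusted p = 0.123). Receptor and antibody segments resemble each other, and these probe sets may report relatives too. Both called probe sets shared by several genes are annotated to immunoglobulin κ light chain segments. The first had 1405 and 1404 against 648.9 and 768.4 (0.98 ± 0.134, adjusted p = 0.015) and the second 1440 and 1620 against 885 and 809.3 (0.84 ± 0.126, adjusted p = 0.0221). No estradiol array overlapped a control array in any of these 4. Without control replicate 2, none of these calls passed, Klf9 and Me1 included, and Slc2a4 was the single probe set called. Without control replicate 1 the count was 311, and the cause of this gap was not tested. Without estradiol day 2 replicate 1 it was 6, without replicate 2 it was 8, without either estradiol day 6 array it was 7, and without genistein day 6 replicate 1 it was 20.

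**Figure D2:**
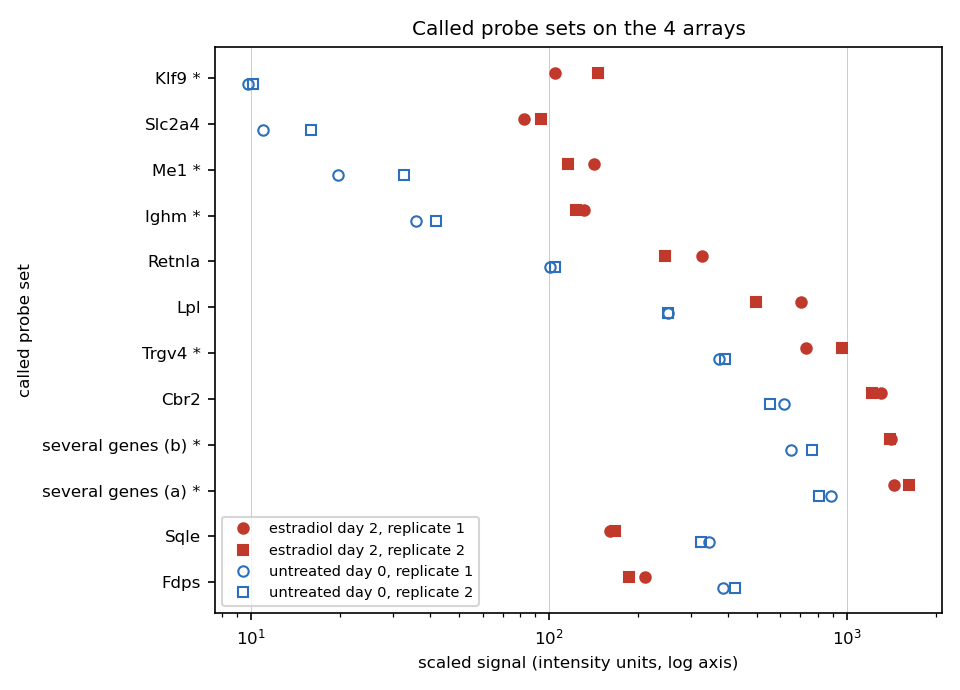
Signals of the 12 called probe sets (rows) on the 4 arrays, on a log axis in intensity units. Red filled symbols are estradiol day 2, blue open symbols untreated day 0, circles replicate 1 and squares replicate 2, an asterisk marks a probe set that is not its gene's highest or that several genes share, and the groups do not overlap in any row.

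Cholesterol synthesis was the only list with called falls. Sqle, squalene epoxidase, which takes the first oxygen-dependent step towards sterols, had 161.1 and 166.8 at estradiol day 2, against 344.8 and 324.6 in controls, and fell by 0.96 ± 0.161 (limma, adjusted p = 0.042). Fdps, which makes the farnesyl units of the pathway, had 210.9 and 185.6 against 384.1 and 421.9, and fell by 0.97 ± 0.162 (adjusted p = 0.042). The other Fdps probe set on the array was too dim to test. Both estradiol arrays lay well below both controls in each gene, with fold changes of 0.513 and 0.511. Both calls were near the threshold. Sqle passed in 5 and Fdps in 3 of the 14 fits that each left out 1 array, and both were lost without control replicate 2 and without either array of estradiol day 2, 3 or 6 or of genistein day 2. Fdps was also lost without either genistein day 3 array. Of 26 alternatives Sqle kept its call in 11 and Fdps in 8, with differences of -1.04 to -0.70 and -1.05 to -0.70.

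Of 20 listed genes of this pathway, 17 were on the array with a probe set of their own and 15 were tested, with a median of -0.20 against 0.04 over all 8214 genes. Of the 15, 12 were negative and 10 lay below both controls on both estradiol arrays, none above. The signals of the 17 summed to 2321 and 2173 at estradiol day 2, against 3380 and 3185 in controls. Leaving out 1 of the 4 arrays moved the median between -0.24 and -0.12, nearest to 0 without estradiol day 2 replicate 2. Cyp51, which removes a methyl group from lanosterol, had 17.7 and 47.4 against 121.8 and 102.8 (-1.47 ± 0.262, adjusted p = 0.0629). Msmo1, the next methyl sterol oxidase, had 68.8 and 22.6 against 126.4 and 125.4 (-1.31 ± 0.324, adjusted p = 0.18). Both members were well under both controls on each estradiol array, but the estradiol arrays themselves differed by more than 2-fold. Idi1, which isomerises the isoprene unit, had 218.9 and 155.7 against 370.8 and 353.1 (-0.91 ± 0.225, adjusted p = 0.179). Hmgcs1, the synthase at the head of the pathway, had 441.1 and 299.7 against 645.1 and 543.5 (-0.68 ± 0.227, adjusted p = 0.292). Other members had small differences: Mvd stood at 0.08 ± 0.229, Lss at 0.05 ± 0.270, Ebp at -0.03 ± 0.160, Sc5d at -0.09 ± 0.139, Nsdhl at -0.10 ± 0.162 and Dhcr7 at -0.20 ± 0.157. Tm7sf2 stood at 0.49 ± 0.333, with 58.6 and 89.0 against 82.5 and 24.2, and at -0.15 without control replicate 2.

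The promoters of these 4 members are shown because the members lay below both controls together and the pathway is known to be switched on through sterol response elements and CCAAT boxes. Each runs from 250 bases before to 50 after the gene's start, read 5′ to 3′ on the gene's strand, from RefSeq on GRCm38.p6. Capitals mark CCAAT, on either strand (ATTGG on the other), and in Hmgcs1 also the sterol response core CACCCCAC.
Cyp51 (chr5:4104648-4104947, minus strand): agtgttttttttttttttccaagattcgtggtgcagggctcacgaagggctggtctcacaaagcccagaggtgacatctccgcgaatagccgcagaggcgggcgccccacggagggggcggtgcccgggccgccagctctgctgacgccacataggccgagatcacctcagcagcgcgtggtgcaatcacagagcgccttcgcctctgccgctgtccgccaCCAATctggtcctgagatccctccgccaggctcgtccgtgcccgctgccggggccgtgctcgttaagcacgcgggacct
Msmo1 (chr8:64733529-64733828, minus strand): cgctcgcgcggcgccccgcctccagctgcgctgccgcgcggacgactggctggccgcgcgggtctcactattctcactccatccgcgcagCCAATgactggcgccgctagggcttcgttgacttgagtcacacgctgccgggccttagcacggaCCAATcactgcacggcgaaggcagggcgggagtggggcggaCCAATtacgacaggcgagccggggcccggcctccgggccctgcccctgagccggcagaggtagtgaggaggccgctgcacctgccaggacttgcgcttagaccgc
Idi1 (chr13:8885356-8885655, plus strand): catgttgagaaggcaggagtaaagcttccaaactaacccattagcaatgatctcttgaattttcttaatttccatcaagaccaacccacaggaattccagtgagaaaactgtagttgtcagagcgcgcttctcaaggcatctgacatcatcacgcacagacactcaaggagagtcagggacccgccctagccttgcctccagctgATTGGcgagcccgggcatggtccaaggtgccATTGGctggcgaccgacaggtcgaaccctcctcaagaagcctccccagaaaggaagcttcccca
Hmgcs1 (chr13:119690101-119690400, plus strand): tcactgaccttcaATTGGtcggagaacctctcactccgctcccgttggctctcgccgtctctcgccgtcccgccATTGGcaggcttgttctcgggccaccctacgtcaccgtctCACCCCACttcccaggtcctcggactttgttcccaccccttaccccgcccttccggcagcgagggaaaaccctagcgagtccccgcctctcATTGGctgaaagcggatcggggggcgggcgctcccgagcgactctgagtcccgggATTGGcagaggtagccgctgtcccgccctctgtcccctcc

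CCAAT was found once in Cyp51, 3 times in Msmo1, 2 times in Idi1 and 4 times in Hmgcs1. For the whole list, 15 of 20 genes matched the promoter table, with 18 promoters, and 14 of the 15 genes (14 of the 18 promoters) held CCAAT, against 41.1% of all 27025 genes and 37.4% of all 32851 promoters. CACCCCAC was in 2 of the 15 genes, Acat2 and Hmgcs1, against 3.3% of genes. The estrogen response element (GGTCA, any 3 bases, TGACC) and the glucocorticoid response element (GNACA, any 3 bases, TGTNC) were in none of the 15, and in 0.07% and 0.54% of all genes. Both strands were searched, and in Hmgcs1, the 1 printed promoter with both marked motifs, they do not overlap. Of the 10 called genes 4 matched (Cbr2, Klf9, Me1 and Retnla, 5 promoters), of which Klf9 and Me1 held CCAAT and none the other 3 motifs. A match describes letters in these windows and no more.

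Of 13 tested genes that sense, import and export sterols, 10 were positive, with a median of 0.13 and no call. Without control replicate 2 the median was 0.04 and 7 were positive, and without either replicate 1 array it was 0.22. Abca1, the cholesterol exporter, had 453.6 and 357.9 at estradiol day 2 and 252.2 and 304.2 in controls (0.52 ± 0.162, adjusted p = 0.267), and Nr1h3, the oxysterol sensor LXRα, had 63.8 and 67.4 against 44.6 and 42.9 (0.45 ± 0.177). Stard4, a sterol carrier, was the 1 member below both controls, at -0.38 ± 0.178.

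Fatty acid synthesis genes had a median of 0.32 over 13, of which 8 lay above both controls and 1 below. None passed on its highest probe set. Scd1, which makes monounsaturated fatty acids, had 1053 and 1020 at estradiol day 2, against 372.2 and 285.3 in controls (1.62 ± 0.336, adjusted p = 0.108). Fasn, the fatty acid synthase, had 626.8 and 587.5 against 417.5 and 351.2 (0.64 ± 0.201), and Thrsp, a lipogenic protein of liver and fat, had 519.8 and 208.7 against 80.0 and 165.4 (1.40 ± 0.474). In Thrsp the lower estradiol array was close to the higher control. Scd2, the related desaturase, was the exception, with 934.8 and 847.8 against 1208 and 1325 (-0.50 ± 0.126, adjusted p = 0.196).

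Of 11 tested markers of fat cells, 1, Lpl, was called. All 11 were positive (8 without control replicate 1), with a median of 0.57, and 7 lay above both controls. The 4 that overlapped between the groups were Retn (0.46 ± 0.310), Car3 (0.39 ± 0.361), Dgat2 (0.28 ± 0.240) and Lipe (0.16 ± 0.213). Retn had 120.5 and 173.1 at estradiol day 2 against 150.9 and 65.5 in controls. In bulk RNA, fewer or more cells of a type and less or more RNA per cell cannot be told apart. Ucp1, which uncouples respiration in brown fat, had 543.9 and 190.5 at estradiol day 2, against 12.2 and 24.5 in controls. Its difference of 3.33 ± 0.701 was the largest of all tested genes by this fit and did not pass (adjusted p = 0.108). The groups were far apart, and the estradiol pools differed by nearly 3-fold. Fabp4, a fatty acid carrier, had 1139 and 728.4 against 465.3 and 541.9 (0.84 ± 0.200), and Cebpa, a transcription factor of fat and myeloid cells, had 180.0 and 186.7 against 113.7 and 54.8 (1.06 ± 0.238). Adipoq, the fat hormone adiponectin, had 182.1 and 154.8 against 64.2 and 127.9 (0.78 ± 0.370). Of the markers too dim to test, Cidea, a brown fat lipid droplet protein, had 109.3 and 76.1 against 21.2 and 5.3, while Lep (5.1 and 5.6 against 5.6 and 7.8), Pparg (4.7 and 6.7 against 4.2 and 5.6) and Aqp7 (3.9 and 5.7 against 7.0 and 1.7) stayed near the floor on all 4 arrays.

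Over the 17 adipocyte markers on the array, signals summed to 4145 and 3255 at estradiol day 2, 1830 and 2114 in controls, and 1924 and 1818 at genistein day 2. The sums include Lpl itself and weigh the brightest markers most. The thymus is embedded in fat, and whether fat in the dissected tissue bears on Lpl, Me1, Retnla or Slc2a4 was not tested. Whether skeletal muscle bears on Slc2a4 was not tested either. Slc2a4 had 64.3 and 70.6 on the genistein day 2 arrays. Skeletal muscle, another tissue that uses Slc2a4, had a median of 0.07 over 5 tested markers, which was -0.06 without estradiol day 2 replicate 1, 0.20 without replicate 2 and -0.01 without control replicate 1, and Acta1, Myh1, Myh2 and Myh4 were at signals of 34 or less on all 4 arrays.

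Macrophage markers were positive for 17 of 18 tested genes, with a median of 0.45, and 14 lay above both controls (background 22.7%), yet none was called. Vcam1, an adhesion molecule of macrophages and stroma, had 669.9 and 701.6 at estradiol day 2, against 392.2 and 412.5 in controls (0.75 ± 0.137, adjusted p = 0.0747). The other tested Vcam1 probe sets overlapped between the groups, at 0.40 ± 0.201 and 0.47 ± 0.493. Hmox1, which degrades heme, had 84.5 and 87.9 against 45.8 and 26.0 (1.00 ± 0.214, adjusted p = 0.112). C1qa, a complement subunit made by macrophages, had 530.7 and 531 against 358 and 275.8 (0.73 ± 0.186), and the iron exporter Slc40a1 had 293.1 and 270.2 against 148.5 and 200.9 (0.66 ± 0.169). The members did not all do the same. Csf1r, the growth factor receptor that defines the lineage, stood at 0.43 ± 0.141 and Cd68 at 0.57 ± 0.150, but Adgre1 (F4/80) at 0.04 ± 0.171 and Lyz2 at 0.08 ± 0.145, and Fcgr1 lay below both controls at -0.15 ± 0.178. With 1 of the 4 arrays left out the median stayed between 0.37 and 0.53. Among 7 tested genes of alternatively activated macrophages, Retnla was the 1 call. Mrc1 stood at 0.34 ± 0.176, and of the dim markers Chil3 had 60.2 and 53.3 against 32.2 and 22.6, and Arg1 25.2 and 14.8 against 2.7 and 3.6.

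All 8 tested MHC class II genes, which present antigen to CD4 T cells, lay above both controls on both estradiol arrays, with no call and a median of 0.45. Their differences ranged from 0.13 to 0.51. H2-Ab1 had 855.8 and 748.4 at estradiol day 2 and 624.6 and 545.6 in controls (0.45 ± 0.130, adjusted p = 0.249), and the invariant chain Cd74 had 3224 and 2974 against 2353 and 2311 (0.41 ± 0.125). Ciita, the switch of the class II genes, had 72.8 and 80.6 against 45.6 and 56.0 (0.48 ± 0.216). Dendritic cell markers had a median of 0.27 over 13, 12 of them positive, with Ccl22, a chemokine of mature dendritic cells, at 0.57 ± 0.168.

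Neutrophil and granule genes were positive for 8 of 8, with a median of 0.57 and no call. S100a8, a calcium-binding alarm protein, had 642.9 and 397.8 at estradiol day 2, against 283.9 and 269.8 in controls (0.84 ± 0.253, adjusted p = 0.252). The granule protein Ngp had 430 and 343.1 against 179.3 and 213.8 (0.92 ± 0.249), and myeloperoxidase Mpo 109.4 and 120.4 against 57.8 and 69.3 (0.72 ± 0.213). Of 13 members on the array 5 were too dim to test, among them Elane (28.4 and 63.0 against 24.3 and 14.5). Of 2 tested red blood cell genes 1 was positive and 1 negative, and the part of residual blood in the neutrophil values was not tested.

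Epithelial genes of the cortex had a median of 0.33 over 14, of which 12 were positive and 10 above both controls, with no call. Prss16, a serine protease of cortical epithelium, had 3016 and 2916 at estradiol day 2 and 2056 and 1928 in controls (0.57 ± 0.121, adjusted p = 0.108). Trp63, a regulator of epithelial stem cells, had 192.1 and 180.8 against 109.4 and 90.3 (0.81 ± 0.177, adjusted p = 0.114), and the chemokine Ccl25 had 2443 and 2037 against 1601 and 1544 (0.50 ± 0.118). The protease Ctsl had 3024 and 2748 against 2144 and 2227 (0.40 ± 0.0994). In each of these 4 genes both estradiol arrays were higher. Foxn1, by contrast, stood at 0.16 ± 0.258, the Notch ligand Dll4 at 0.11 ± 0.384 and the cytokine Il7 at -0.23 ± 0.195. Medullary epithelium had a median of 0.30 over 10 genes (0.47 without control replicate 1). Epcam had 288.9 and 208.8 against 143.7 and 84.8 (1.05 ± 0.230, adjusted p = 0.114), and Aire, which displays tissue antigens to thymocytes, had 88.1 and 92.9 against 64.9 and 38.4 (0.68 ± 0.218).

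Fibroblasts and vessels make up the rest of the stroma. Among 17 fibroblast and matrix genes the median was 0.38, with 13 above both controls, with no call, and Col1a2, a chain of type I collagen, had 240.9 and 237.3 at estradiol day 2, against 152.9 and 167.0 in controls (0.54 ± 0.167). Igfbp7 and Postn stood at 0.69 ± 0.223 and 0.52 ± 0.182. Endothelial genes had a median of 0.12 over 9 (0.06 without control replicate 1), with Esam at 0.67 ± 0.203 and Plvap at 0.60 ± 0.184, while the pan-endothelial Pecam1 stood at 0.12 ± 0.191.

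**Figure D3:**
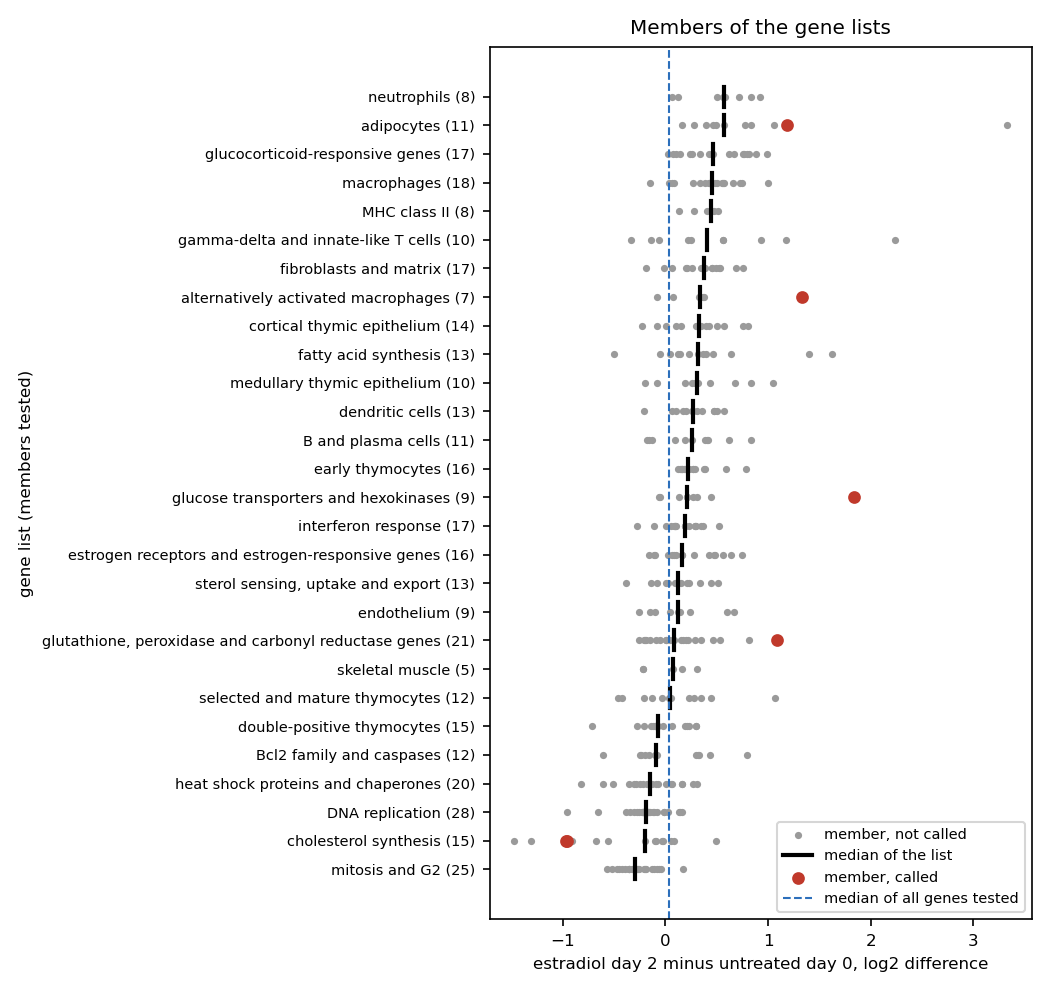
Log2 differences, estradiol day 2 minus untreated day 0, of the tested members of each gene list with at least 5 of them (rows, with the number tested). Grey points are members that were not called, red points the called ones (Slc2a4, Lpl, Retnla, Cbr2, and Sqle and Fdps below 0), black bars list medians, which run from -0.29 for mitosis to 0.57, and the dashed line is the median of all genes, 0.04.

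Thymocytes are the bulk of the organ's cells. Double-positive thymocytes, the cortical majority, had a median of -0.07 over 15 genes, 9 of them negative (-0.002 without estradiol day 2 replicate 2 and -0.03 without control replicate 1). Cd4 had 713.4 and 1091 at estradiol day 2 and 765.4 and 666.8 in controls (0.30 ± 0.259), and Cd8a had 1583 and 1827 against 1986 and 1679 (-0.10 ± 0.127). For both, and for Rag1 (0.06 ± 0.160), the groups overlapped. Rag2, the partner of Rag1, did not: it had 265 and 258.2 against 383.3 and 506.4 (-0.72 ± 0.195, adjusted p = 0.22). Dntt, which adds bases at receptor joints, stood at 0.19 ± 0.118. Since the arrays share 1 scale, these are relative levels, and they give no number of thymocytes.

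Early thymocyte genes were positive for 16 of 16, with a median of 0.23 and 7 above both controls, and none passed. Il7r, the survival receptor of early and late stages, had 323.1 and 268.4 at estradiol day 2, against 188.4 and 193.2 in controls (0.59 ± 0.154, adjusted p = 0.215), and Il2ra (CD25) had 92.1 and 108.1 against 56.8 and 46.0 (0.79 ± 0.276). Ptcra, the pre-T receptor chain, stood at 0.15 ± 0.175. Genes of selected and mature thymocytes had a median of 0.05 over 12, which ran from -0.01 without estradiol day 2 replicate 2 to 0.13 without replicate 1 (0.08 and 0.12 without control replicates 1 and 2). The integrin Itgb7 had 209 and 225.3 against 124.6 and 71.7 (1.07 ± 0.251, adjusted p = 0.146), and Egr1, induced by receptor signals, had 588.5 and 552 against 736.1 and 804.6 (-0.42 ± 0.124, adjusted p = 0.25). Egr2 stood with Egr1 below both controls at -0.46 ± 0.223.

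Genes of γδ and innate-like T cells had a median of 0.41 over 10, with 6 above both controls and 2 below. Trgv1, a second γ chain segment, had 372.6 and 500.7 at estradiol day 2, against 180.3 and 183.4 in controls (1.18 ± 0.225, adjusted p = 0.0879). Cd7, a T and NK cell surface protein, had 94.0 and 117.9 against 5.7 and 14.5 (2.24 ± 0.447, adjusted p = 0.0982), again from controls under the added constant. The chemokine Ccl5 stood at 0.57 ± 0.139 and Fcer1g at 0.93 ± 0.282. Id3, a regulator of γδ cell fate, was the lowest member at -0.33 ± 0.155. B and plasma cell markers had a median of 0.26 over 11 (0.17 without control replicate 2). Iglv1, a light chain segment, had 120.2 and 112.7 against 63.0 and 53.6 (0.84 ± 0.209, adjusted p = 0.181), and Jchain, which links secreted antibody, had 341.8 and 266 against 163.5 and 223.3 (0.62 ± 0.198). The surface marker Cd79a (-0.13 ± 0.221) overlapped between the groups. The 13 B cell markers on the array summed to 5144 and 5081 at estradiol day 2 and 4401 and 4493 in controls. These sums include Ighm itself, whose highest probe set had 2476 and 2303 against 1738 and 1853. The part of B cells in the immunoglobulin calls was not tested.

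Genes of mitosis had the lowest median of the 30 lists. Of 25 tested, 24 were negative and 17 lay below both controls (background 16.9%), with a median of -0.29 and no call. Aurkb, a mitotic kinase, had 268.7 and 270.3 at estradiol day 2 and 344.7 and 416.2 in controls (-0.47 ± 0.141, adjusted p = 0.252). Kif20a, a kinesin of cell cleavage, had 106.2 and 112.7 against 129 and 221.7 (-0.57 ± 0.238), and Ccnb2, a mitotic cyclin, 613.6 and 598.3 against 709.8 and 904.4 (-0.39 ± 0.163). In several members the control arrays differed more from each other than the estradiol arrays did. The inhibitor of apoptosis Birc5 was the 1 positive member, at 0.17 ± 0.179. Without control replicate 2 the median was -0.20, and without control replicate 1 it was -0.37. DNA replication genes had a median of -0.19 over 28 (-0.11 without control replicate 2), of which 24 were negative and 11 below both controls. Ccne2, a cyclin of S phase entry, had 139.1 and 60.5 against 182.6 and 208.4 (-0.96 ± 0.258, adjusted p = 0.22), and the helicase subunit Mcm3 602.8 and 661.1 against 777.6 and 787.8 (-0.30 ± 0.135). The members ran from -0.96 to 0.17.

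Glucocorticoid-responsive genes were positive for 17 of 17, with a median of 0.47 and 12 above both controls, and none passed on its highest probe set. Mt2, a metallothionein, had 350.3 and 228.5 at estradiol day 2, against 129.3 and 165.7 in controls (0.88 ± 0.199, adjusted p = 0.123). The extracellular peroxidase Gpx3 had 260.1 and 217 against 133.2 and 123.1 (0.82 ± 0.174, adjusted p = 0.112), and Bcl2l11, the death-promoting BIM, had 724.3 and 632.7 against 469 and 314.6 (0.79 ± 0.182, adjusted p = 0.127). Tsc22d3, the glucocorticoid-induced leucine zipper, stood at 0.67 ± 0.197. The receptor gene Nr3c1 stood at 0.08 ± 0.175, and the kinase target Sgk1 at 0.24 ± 0.227. With estradiol day 2 replicate 2 left out 13 of the 17 were positive, with a median of 0.46.

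Of the estrogen receptors, none was bright enough to test. Esr1 had 10.6 and 7.5 at estradiol day 2 and 6.2 and 28.2 in controls, Esr2 had 28.9 and 12.9 against 23.0 and 16.3, and Pgr, a classic target, had 25.2 and 15.6 against 10.6 and 35.3. Of the estrogen-responsive list 16 genes were tested, with a median of 0.17 (0.29 without control replicate 1), 13 positive values and no call. Cyp1b1, which hydroxylates estrogens, had 119.7 and 123.6 against 69.5 and 62.9 (0.75 ± 0.200, adjusted p = 0.22), and the growth factor binding protein Igfbp5 had 157.9 and 159 against 101.2 and 91.5 (0.64 ± 0.198). Both pairs of arrays were close to each other within their group. Myc, an early target in other tissues, stood at -0.11 ± 0.150, and its groups overlapped.

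Of the remaining lists, the Bcl2 family and caspases had a median of -0.09 over 12 (-0.02 without estradiol day 2 replicate 2), with Fas, a death receptor, at -0.61 ± 0.244 and the survival gene Bcl2 at 0.33 ± 0.199. Heat shock proteins and chaperones had a median of -0.15 over 20 (-0.08 without estradiol day 2 replicate 2). Hsph1, an HSP70 co-chaperone, had 259.3 and 259.8 at estradiol day 2, against 549.1 and 402.3 in controls (-0.82 ± 0.170, adjusted p = 0.108), and Dnaja1 951 and 882.2 against 1261 and 1565 (-0.61 ± 0.172). Interferon-responsive genes had a median of 0.20 over 17, Ifit1 leading at 0.53 ± 0.193. Among 21 glutathione, peroxidase and carbonyl reductase genes, with a median of 0.09, Cbr2 was the 1 call, while its relative Cbr3 stood at 0.20 ± 0.238.

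Next in p without a call, by the rule for naming, came Crip3, Vcam1, Klf9, Trgv1, Nckipsd, Plac8, Gas6 and Cd7 among positive differences. Crip3, a LIM protein of the thymus, had 818.9 and 774.2 at estradiol day 2 and 490.9 and 468.4 in controls (0.71 ± 0.126, adjusted p = 0.0594). Gas6, the bridge by which macrophages bind dying cells, had 760.9 and 846.4 against 422.4 and 302.3 (1.13 ± 0.225, adjusted p = 0.0982). Plac8 had 1031 and 1056 against 722 and 597.2 (0.66 ± 0.130), and the SH3 protein Nckipsd 87.9 and 105.2 against 29.7 and 50.9 (1.02 ± 0.200). On the negative side came Cyp51, Rpap3, Mtfr1, Hsph1, Atp10a, Trim59, Eef1e1 and Polr1d, with limma adjusted p from 0.0629 to 0.114. Rpap3, an HSP90 co-chaperone of RNA polymerase assembly, had 50.8 and 46.3 against 99.9 and 141.6 (-1.07 ± 0.212, adjusted p = 0.0982), and Polr1d, a polymerase subunit, had 432.4 and 431 against 645 and 786.6 (-0.70 ± 0.155), although its other probe set stood at -0.01. Eef1e1, of the tRNA synthetase complex, had 237.4 and 279.2 against 453.2 and 463.4 (-0.79 ± 0.174). In all 16 the estradiol arrays lay beyond both controls, as the naming rule required.

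Whether day 2 differed from later days of estradiol was tested as a direct difference within the same fit. Against day 3, 2 probe sets were called (0.0147%), and against day 6 limma called 0 (0%), with 1290 at an unadjusted p of 0.05. Plvap, a protein of endothelial diaphragms, had 122.1 and 102.6 at day 2, then 30.4 and 27.5 at day 3, then 89 and 118 at day 6. It was higher at day 2 than at day 3 by 1.51 ± 0.184 (adjusted p = 0.0157). A lower Nktr probe set, for a cyclophilin-like protein of NK cells, named after its values were seen, had 56.2 and 43.7 at day 2 and 167.6 and 171.3 at day 3 (-1.50 ± 0.202, adjusted p = 0.0246), while the highest Nktr probe set had 261.5 and 383.6 against 384.9 and 362. The count was 5 without estradiol day 2 replicate 1, 8 without replicate 2, 1 without either genistein day 3 array and 3 without either genistein day 6 array. Both calls were lost without either day 3 array, Plvap also without estradiol day 2 replicate 1 and Nktr without replicate 2 or either genistein day 3 array. Against day 6 the smallest p belonged to Vipas39 (355.3 and 380.8 at day 2, 159.6 and 182.5 at day 6, a difference of 1.04 ± 0.187), Tmem37 (0.91 ± 0.165), Ctnnd1 (-1.098 ± 0.223) and Tpt1 (0.60 ± 0.123), with adjusted p of 0.276 to 0.32. Without estradiol day 2 replicates 1 and 2 there were 2 and 5 calls against day 6.

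For the 6 genes called on their highest probe set, signals at later days lay on the same side of both controls. The comparisons of each day with control share the control arrays, so these are values side by side and no independent repeats. Slc2a4 had 68.4 and 73.4 at day 3, then 55.6 and 75.5 at day 6, Cbr2 1108 and 1170, then 1512 and 1628, and Fdps 173.3 and 190.4, then 239.7 and 198.2. Retnla was nearer to its controls at day 3, with 124.7 and 137.8, and had 241.1 and 173.9 at day 6. The called Ighm probe set had 32.2 and 49.4 at day 3, within reach of its controls, and 172 and 235.5 at day 6. Ucp1 had its highest signal at day 2, then 73.1 and 214.9 at day 3, then 137.6 and 20.7 at day 6.

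Against genistein at the same day, 11 probe sets were called (0.081%), all higher with estradiol. The injections and the diet differ in route and vehicle as well as compound, so the comparison is of whole treatments. Lifr, the receptor of leukemia inhibitory factor, had 681.1 and 684 at estradiol day 2, against 150.7 and 257.6 at genistein day 2 (1.71 ± 0.258, adjusted p = 0.0283), with controls between them at 308.8 and 326. Retnla (76.2 and 83.8 with genistein) differed by 1.64 ± 0.205, Cbr2 (688.2 and 540.7) by 1.03 ± 0.138 and Lpl (266.4 and 268.1) by 1.102 ± 0.183, with adjusted p of 0.0104, 0.0119 and 0.0427. On the genistein arrays Lpl and Cbr2 were near their control levels and Retnla lay below both controls. S100a8 (158.5 and 157.4) differed by 1.59 ± 0.253 (adjusted p = 0.0374). Its controls, at 283.9 and 269.8, lay between the treatments, and genistein stood at -0.75 against them. C77080, an uncharacterised gene, had 122.7 and 86.8 against 31.7 and 32.0 with genistein (1.32 ± 0.183, adjusted p = 0.0138), with controls at 112.1 and 116.9. The lower probe sets of Me1 (2.23 ± 0.263) and Ighm (1.26 ± 0.207), chosen after their values were seen, were also called, as were 3 probe sets with several gene symbols or none.

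For Slc2a4, 82.9 and 94.5 with estradiol and 64.3 and 70.6 with genistein differed by 0.33 ± 0.193 (adjusted p = 0.836), and for Sqle, 161.1 and 166.8 with estradiol and 193.7 and 202.3 with genistein differed by -0.25 ± 0.161 (adjusted p = 0.869). Both genistein arrays of Sqle lay below both controls. Fdps had 333 and 359.1 with genistein, also below both controls (-0.21 ± 0.162 against them). Estradiol differed from genistein by -0.76 ± 0.162 for Fdps (limma, adjusted p = 0.151). Over the 15 cholesterol synthesis genes the median against the same controls was -0.20 with estradiol and -0.20 with genistein, and the 2 share those control arrays. Equal medians do not make the lists equal. The median of the direct differences, estradiol minus genistein, was -0.18. Signals of the 17 genes on the array summed to 2321 and 2173 with estradiol and 2684 and 2540 with genistein. A p that misses the threshold does not show that the treatments act alike. The count of 11 became 1 without estradiol day 2 replicate 1, 1 without genistein day 2 replicate 1 and 5 without either estradiol day 6 array. Lpl passed in 3, Ighm in 2 and S100a8 in 7 of the 14 fits that left out 1 array, Lifr in 9, C77080 in 11 and Retnla, Cbr2 and Me1 in 12.

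**Figure D4:**
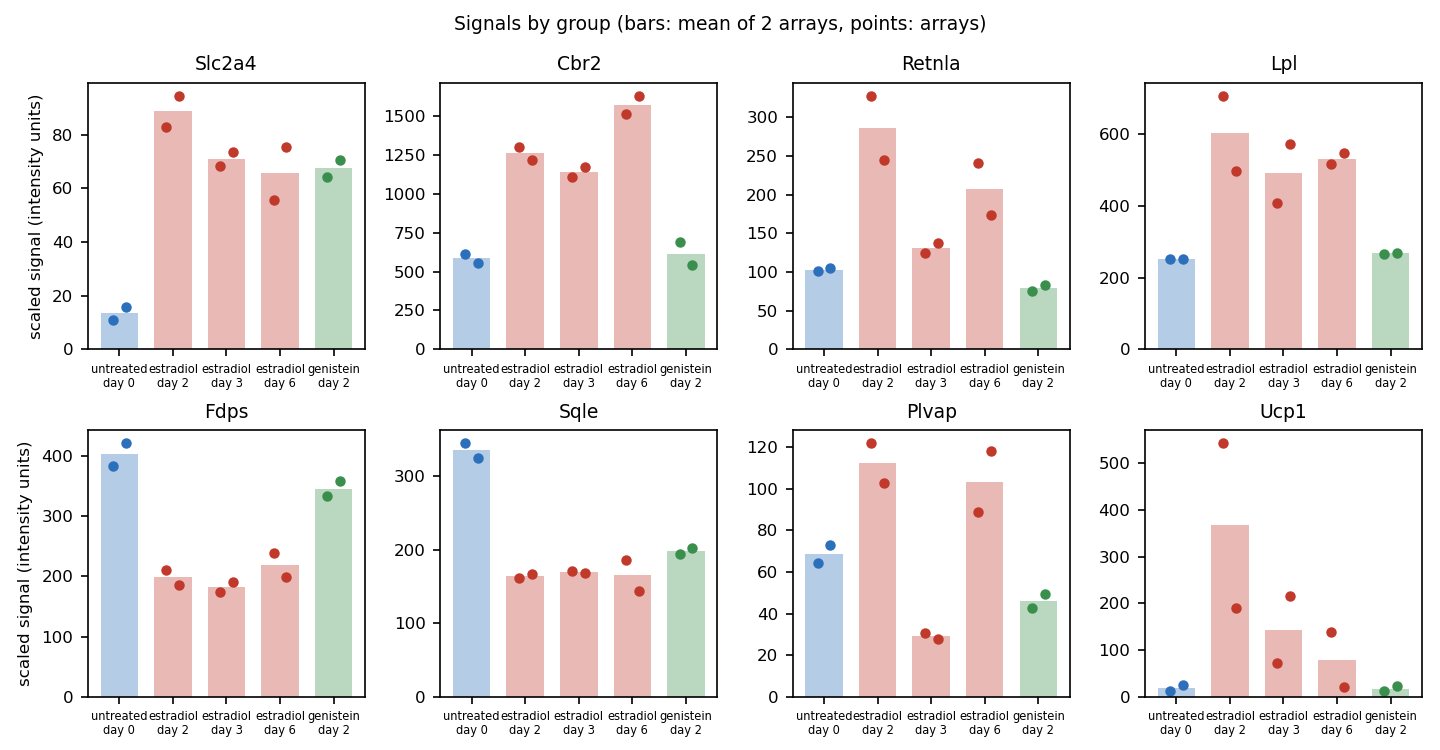
Signals (intensity units, linear axes from 0) of 8 genes in untreated mice at day 0 (blue), at estradiol days 2, 3 and 6 (red) and at genistein day 2 (green). Bars are means of 2 arrays and points the arrays. Slc2a4 is above control in every treated group, and with genistein Cbr2 and Lpl stay near control and Retnla below it. Fdps and Sqle are lower with estradiol throughout, and also with genistein, Fdps by less. Plvap dips at day 3, and the Ucp1 arrays of a group spread widely.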

How the data were processed

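Thymus RNA was measured on 14 short oligonucleotide arrays, 2 for each of 7 groups. The authors deposited MAS5 5.0 signal intensities, per the submitters' processing notes. The trimmed means of the deposited columns showed that 3 arrays were on higher scales (1.49, 2 and 2.23 times), and each array was rescaled to 1 common mean with 2% trimmed from each end. No other column of per-sample values was present (0). Of 22690 probe sets, 64 controls were removed, 20393 had 1 gene symbol, 691 had several and 1606 had none, and 20364 had an Entrez ID found in the RefSeq gene table. After log2(signal + 16), the dimmest 40% by mean were dropped. This left 13576 probe sets (lowest mean signal 44.5), 2821 of the 8214 genes having more than 1. A group-means model over all 14 arrays was fitted with limma 3.58.1 in R 4.3.3 (eBayes with trend, 7 residual degrees of freedom), with Benjamini-Hochberg adjustment within each of 4 comparisons. With 2 arrays a group, the number of arrays limits the precision.

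Named are genes called on their highest probe set, the 8 rises and 8 falls next in p whose arrays lie beyond both controls, up to 4 members of each list, a few genes looked up, and calls of the other comparisons (up to 5 each way). Others are stated as chosen after their values were seen. Members and lists were chosen with earlier results of these data known. Replicate numbers were not treated as pairs. Deviations of the replicate 1 pools of estradiol day 2 and control from their group means correlated at -0.211. This covers 1 pair of groups and cannot decide whether the numbers pair pools. Alternatives changed the added constant, filter, scale, normalization, variance trend, replicate block, samples fitted and single arrays. Promoters came from RefSeq, GRCm38.p6, and figures from python 3.11.15 with matplotlib 3.10.9.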

Additional observations from a re-analysis of the deposited data

Results flagged for a closer look

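Estradiol at day 2 differed from another treated group by the limma test of the difference itself in 13 calls, over 2 arrays a group, of which the 10 with 1 gene symbol are given here. Against estradiol at day 3, Plvap differed by 1.509 on the log2 scale and the lower probe set of Nktr by -1.499. Against genistein at day 2 the differences were 2.232 for the lower probe set of Me1, 1.71 for Lifr, 1.643 for Retnla, 1.586 for S100a8, 1.32 for C77080, 1.264 for the called probe set of Ighm, 1.102 for Lpl and 1.025 for Cbr2. Plvap lay above both controls at estradiol day 2 and below both at day 3, and C77080 lay below both controls with genistein, while its estradiol day 2 arrays, at 122.7 and 86.8, lay on either side of the controls at 112.1 and 116.9.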

How the results depend on the processing

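With 2 pools a group and 7 residual degrees of freedom, counts of calls depended on single arrays and settings, and the causes were not tested. Leaving out 1 array gave 1 to 311 calls against control, 0 to 8 against estradiol day 3, 0 to 5 against day 6 and 1 to 16 against genistein day 2. Values as deposited gave 92, 9689, 86 and 43 in that order, the median of all probe sets against control then being 0.285 and against day 3 -0.734. Against control (12 calls), no filter gave 4, centring on the median 6, no variance trend 7, leaving out the 3 arrays of higher scale 4, and fitting only the groups compared 0 (874 at an unadjusted p of 0.05). Centring changed the split to 5 higher and 1 lower, leaving out the 3 arrays to 1 higher and 3 lower, and no filter and no trend to all higher. Against day 3 (2 calls), an added constant of 1 gave 1, of 64 gave 4, no filter 6, the lowest 60% left out 0, centring 4, the groups compared alone 0, and the Gapdh ratio as a covariate, added after seeing the data, 0. Against genistein (11 calls), centring gave 7, the groups compared alone 3, the 3 arrays left out 7, and the Gapdh covariate 6. With the replicate block 11 probe sets were called against control, all higher (the calls of Sqle and Fdps were lost). The block gave 2 against day 3, 0 against day 6 and 9 against genistein. Whether same-numbered pools share a source is not known here. With the control numbers exchanged, an alternative chosen after seeing the data, 12 were called against control.

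No called difference changed sign. Small uncalled ones did. As deposited, differences became 0.124 for Cd79a, 0.183 for Cd8a, 0.073 for Dhcr7, 0.244 for Ebp, 0.066 for Fcgr1, 0.021 for Il7, 0.166 for Myc, 0.169 for Nsdhl and 0.179 for Sc5d. Centring gave -0.038 for Adgre1, -0.024 for Lss and -0.012 for Rag1, quantile normalization -0.031 for Rag1 and -0.016 for Lss, and the Gapdh covariate 0.076 for Cd79a, -0.077 for Lss and -0.026 for Lyz2. Without the 3 arrays, Cd4 was at -0.002, Nr3c1 at -0.141 and Pecam1 at -0.134. With 1 array left out, ranges that crossed or reached 0 were -0.128 to 0.203 for Adgre1, -0.002 to 0.6 for Cd4, -0.422 to 0.171 for Cd79a, -0.222 to 0.018 for Cd8a, -0.389 to 0.604 for Dll4, -0.118 to 0.063 for Ebp, -0.476 to 0.015 for Il7, -0.242 to 0.346 for Lss, -0.088 to 0.254 for Lyz2, -0.217 to 0 for Myc, -0.141 to 0.297 for Nr3c1, -0.134 to 0.376 for Pecam1, -0.187 to 0.314 for Rag1 and -0.154 to 1.138 for Tm7sf2.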
